A study of Mus musculus with 12 samples.

Results

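The cell cycle genes described here carry a cell from G1 into S phase and copy its DNA. They are 49 genes chosen by name, with no measured value in the choice: G1 cyclins and their kinases, E2F factors and pocket proteins, replication origin and helicase proteins, DNA polymerases, nucleotide enzymes and S phase helpers. All 49 had a probe set on the array that named that gene alone, and each gene was read from its brightest probe set, by the mean of all 12 arrays. For the tests, a gene counted as measured if 3 or more arrays read it at a log2 value above 4, and 46 of the 49 did, among 9293 genes in all. Orc1, Mcm10 and Tyms were at or below 4 on all 12 arrays, with highest values of 2.94, 3.90 and 3.65, and were not tested.

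The arrays held RNA of splenic B cells that had been sorted for B220, a surface protein of this lineage, and the study asked how loss of Foxp1 changes gene expression with and without stimulation. There were 4 groups of 3 arrays: Foxp1flox/del cells with IgM, Foxp1flox/del cells without it, Foxp1wt/flox cells with IgM and Foxp1wt/flox cells without it, and all cells were held for 4 h before RNA was taken. Every group carried a flox (conditional) allele, beside a del (deleted) allele in the Foxp1flox/del cells, called deleted below, and a wild-type allele in the Foxp1wt/flox cells, called control below. The mice were of mixed strain, 129/Sv-C57BL/6. The labels do not give the animals' age, the reagent meant by IgM, what recombined the conditional allele and in which cells, or whether replicates came from separate mice, so the p-values below reflect the spread among these arrays, which may be technical.

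Cyclin D with Cdk4 or Cdk6, and then cyclin E with Cdk2, phosphorylate the pocket proteins Rb1 and Rbl1, which hold E2F factors in check. Released E2F factors switch on genes for origin licensing, DNA synthesis and nucleotide supply. Resting splenic B cells are mostly in G0, and engagement of their antigen receptor moves them towards G1 before any DNA is copied. In RNA from a mixed pool of cells, fewer cells of a type and less RNA per cell cannot be told apart.

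The array of deleted cells with IgM, replicate 3, stood apart. It correlated at 0.817 and 0.865 with the other arrays of its group across the tested genes, where arrays of a group otherwise correlated at 0.951 or more. Of the 46 members, 10 were more than 1 log2 unit below the mean of its group mates (Dut lowest, at -2.99), and these had a median genomic span of 9.53 kb. Another 6 members were more than 1 above it, by 1.06 to 1.66, with a median span of 54.9 kb, and the other 30 had a median span of 17.8 kb. Without it, the IgM difference in deleted cells changed sign for 13 members and otherwise moved by over 1.5 times for 12, and the genotype difference with IgM changed sign for 12 and so moved for 25, with 0 of the called members among them. Foxp1 itself was read at 12.14 to 13.20 on deleted arrays and 12.08 to 13.30 on control arrays, with a log2 difference of -0.03 (SE 0.39) in either condition (limma adjusted p = 1 without IgM and 0.968 with it), and whether its probes lie in the deleted segment is not given in the sources used here.

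**Figure D1:**
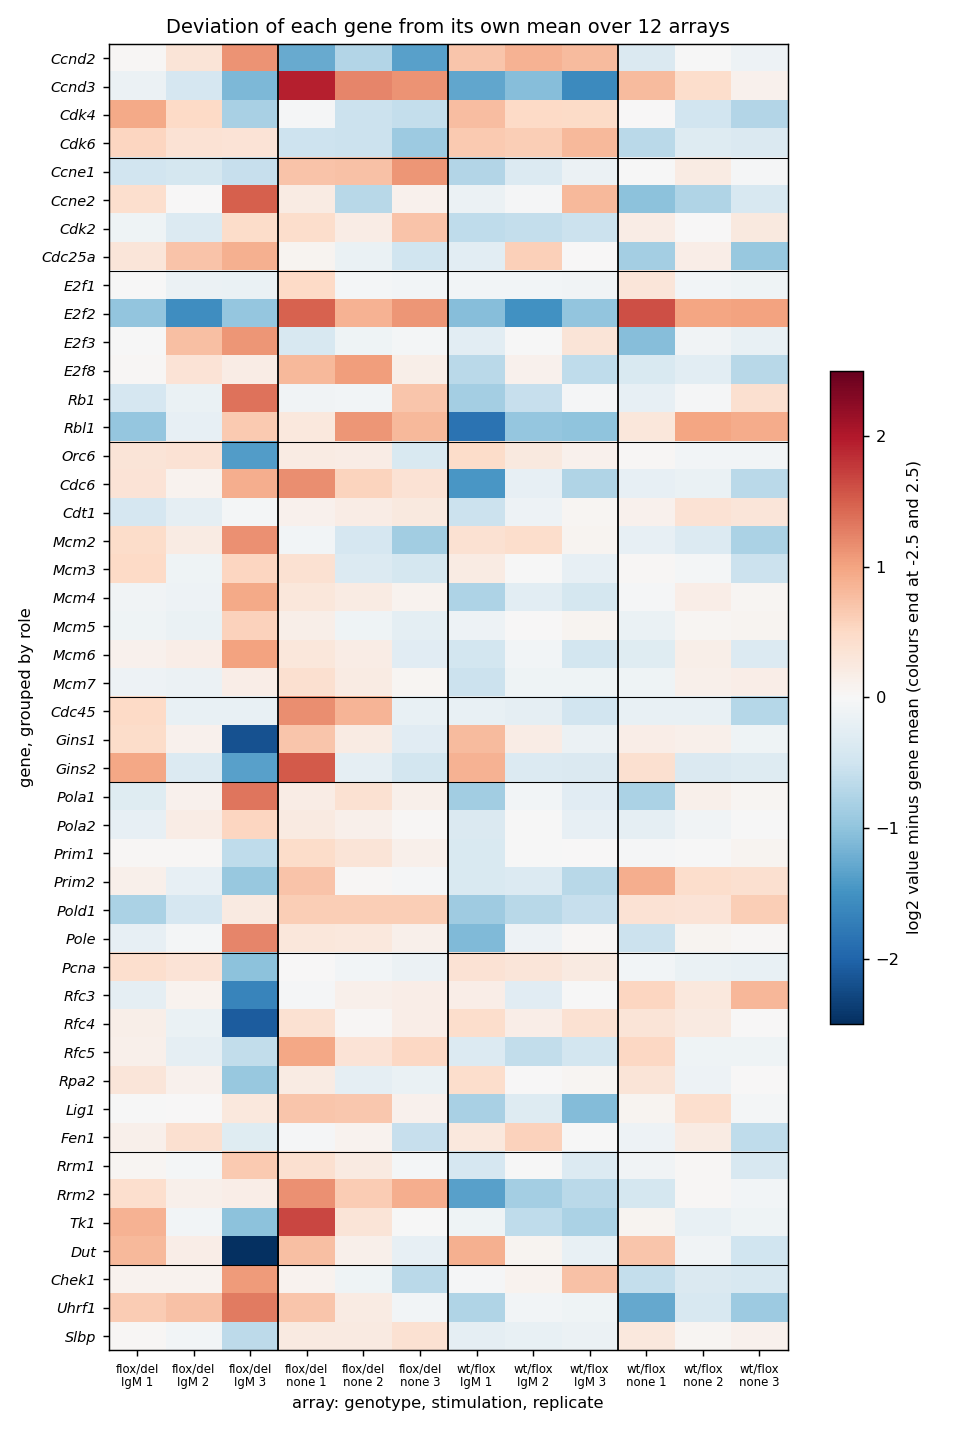
Log2 value of each of the 46 measured members minus that member's own mean over the 12 arrays, with 1 row per gene grouped by role, and 1 column per array grouped by genotype and stimulation. The column of deleted cells with IgM, replicate 3, has the darkest cells, among them Dut, Gins1 and Rfc4 in blue, while E2f2 and Ccnd3 differ in colour between the columns with and without IgM in both genotypes.

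E2F factors bind promoters at a short GC-rich motif. RefSeq promoter windows (build GRCm38.p6, 250 bases before to 50 after an annotated start, 300 in all) were at hand for 41 of the 49 members, and the motif was searched on both strands as TTTCCCGC, TTTCGCGC, TTTGCCGC and TTTGGCGC. It was in a window of 17 of the 41 members (41.5%), against 704 of 27025 genes with a window (2.6%). Windows of E2f2, Rbl1 and Pold1 are shown because these genes hold the motif and fell with IgM, and that of Rrm2 because it was the member that passed the test between genotypes. Capitals mark the match; the E2f2 window is chr4:136172024-136172323 on the plus strand, Rbl1 is chr2:157204485-157204784 on the minus strand, Pold1 is chr7:44548766-44549065 on the minus strand, and Rrm2 is chr12:24708004-24708303 on the plus strand.
E2f2: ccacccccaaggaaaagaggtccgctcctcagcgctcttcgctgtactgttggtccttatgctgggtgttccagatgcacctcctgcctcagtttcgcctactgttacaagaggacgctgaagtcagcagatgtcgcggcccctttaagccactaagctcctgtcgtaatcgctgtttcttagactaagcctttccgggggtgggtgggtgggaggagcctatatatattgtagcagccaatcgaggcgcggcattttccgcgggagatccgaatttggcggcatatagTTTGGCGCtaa
Rbl1: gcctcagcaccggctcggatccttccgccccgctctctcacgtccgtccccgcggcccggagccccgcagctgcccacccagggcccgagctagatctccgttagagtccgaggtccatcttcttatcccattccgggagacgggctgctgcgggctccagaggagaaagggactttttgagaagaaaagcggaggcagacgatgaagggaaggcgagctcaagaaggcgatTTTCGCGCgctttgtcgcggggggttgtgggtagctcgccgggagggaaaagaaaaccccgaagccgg
Pold1: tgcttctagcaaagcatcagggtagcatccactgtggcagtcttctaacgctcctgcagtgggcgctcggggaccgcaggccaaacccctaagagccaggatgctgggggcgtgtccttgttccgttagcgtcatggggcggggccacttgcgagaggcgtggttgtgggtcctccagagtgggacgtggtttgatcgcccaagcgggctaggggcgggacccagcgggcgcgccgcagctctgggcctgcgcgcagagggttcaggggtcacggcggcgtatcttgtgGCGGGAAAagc
Rrm2: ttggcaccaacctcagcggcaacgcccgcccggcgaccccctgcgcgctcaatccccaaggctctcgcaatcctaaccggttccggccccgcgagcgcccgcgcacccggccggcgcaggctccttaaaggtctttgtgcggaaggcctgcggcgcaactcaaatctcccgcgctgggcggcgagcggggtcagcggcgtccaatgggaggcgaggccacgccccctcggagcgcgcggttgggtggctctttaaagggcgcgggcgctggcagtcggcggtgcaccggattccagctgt

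The E2f2 match began 40 bases after the start, the Rbl1 match 18 bases before it (position -18), and the Pold1 match 40 bases after it on the opposite strand. The Rrm2 window held none of the 4 spellings, which says only that these letters are not in it. Among the licensing genes, Mcm3, Mcm5 and Mcm7 had 2 matches each and Mcm6 had 3. Pairs of matches at -153 and -149 in Mcm5, and at -110 and -106 in Mcm6, overlap on opposite strands. The forkhead core TGTTTAC, which factors of the Foxp1 family can bind, was in a window of 3 of the 41 members (7.32%: Ccnd3, Mcm7 and Cdc45), against 4.05% of all genes with a window. A match is a description of the letters and not a bound site.

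**Figure D2:**
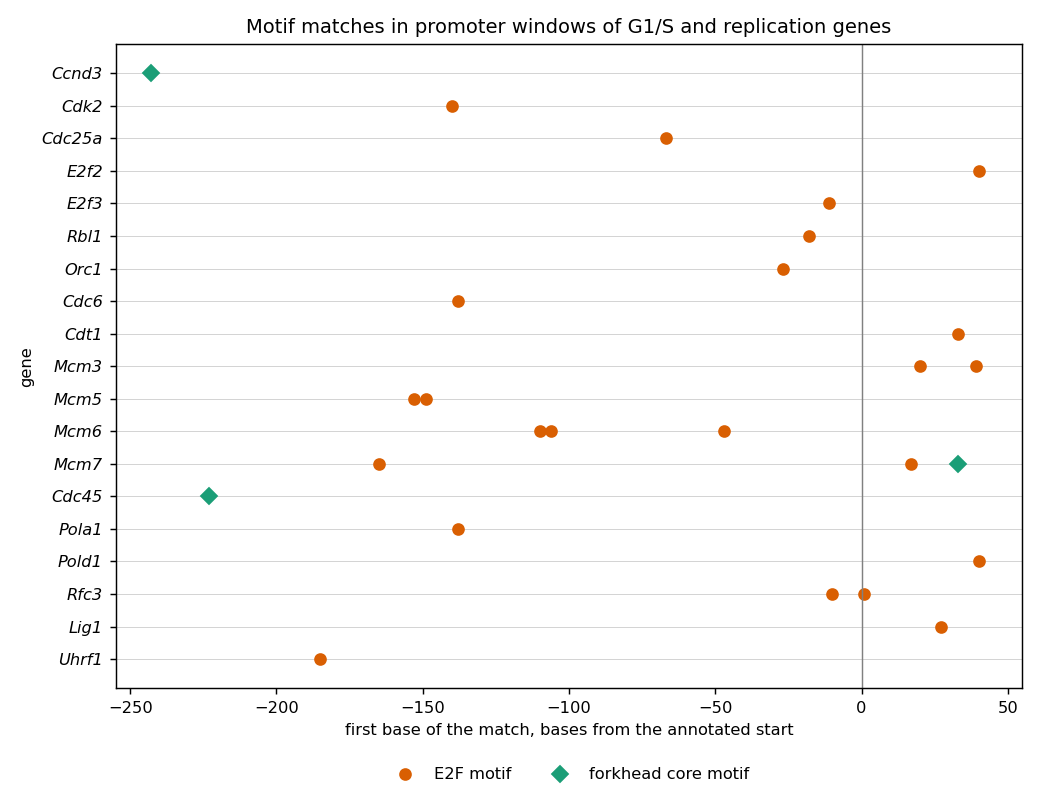
First base of each motif match in the promoter windows of the 19 members with a match, in bases from the annotated start, where negative positions lie before it. Circles are the E2F motif and diamonds the forkhead core; E2F matches spread from -185 in Uhrf1 to 40 in E2f2 and Pold1.

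After 4 h with IgM, E2f2 and Ccnd3 fell and Ccnd2 and Cdk6 rose in both genotypes. In deleted cells 3 of the 46 measured members rose (Ccnd2, Cdk6 and Mcm2) and 5 fell (E2f2, Ccnd3, Ccne1, Pold1 and Rfc5). In control cells 2 rose (Ccnd2 and Cdk6) and 8 fell (E2f2, Rbl1, Ccnd3, Pold1, Prim2, Lig1, Rrm2 and Cdk2). Ccnd2, Ccnd3, Cdk6, E2f2 and Pold1 passed in both genotypes, 62.5% of the 8 in deleted cells and 50% of the 10 in control cells, and these responses share no arrays. Over all genes tested, the calls in both were 71.9% of those in deleted cells and 66.1% of those in control cells. Differences are from limma's moderated test with Benjamini-Hochberg adjustment over all 9293 genes and a threshold of 0.05.

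The counts stand beside those of all genes tested. In deleted cells, 6.52% of the members rose, against 9.78% of all genes tested, and 10.9% fell, against 9.21%. In control cells, 4.35% of the members rose, against 8.71% of all genes, and 17.4% fell, against 12%. The median log2 difference of the members was -0.25 in deleted cells and -0.11 in control cells, beside -0.08 and -0.05 for all genes. Without the array that stood apart, 4 members rose and 6 fell in deleted cells, and 7 rose and 10 fell in control cells, where 12.9% of all genes rose and 12.8% fell in deleted cells, and 16.6% and 19.5% in control cells. With the replicate number as a block, which pairs same-numbered arrays, 5 rose and 8 fell in deleted cells, and 5 rose and 10 fell in control cells, beside 17.3% and 19.3% of all genes in deleted cells and 15.5% and 20.0% in control cells.

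**Figure D3:**
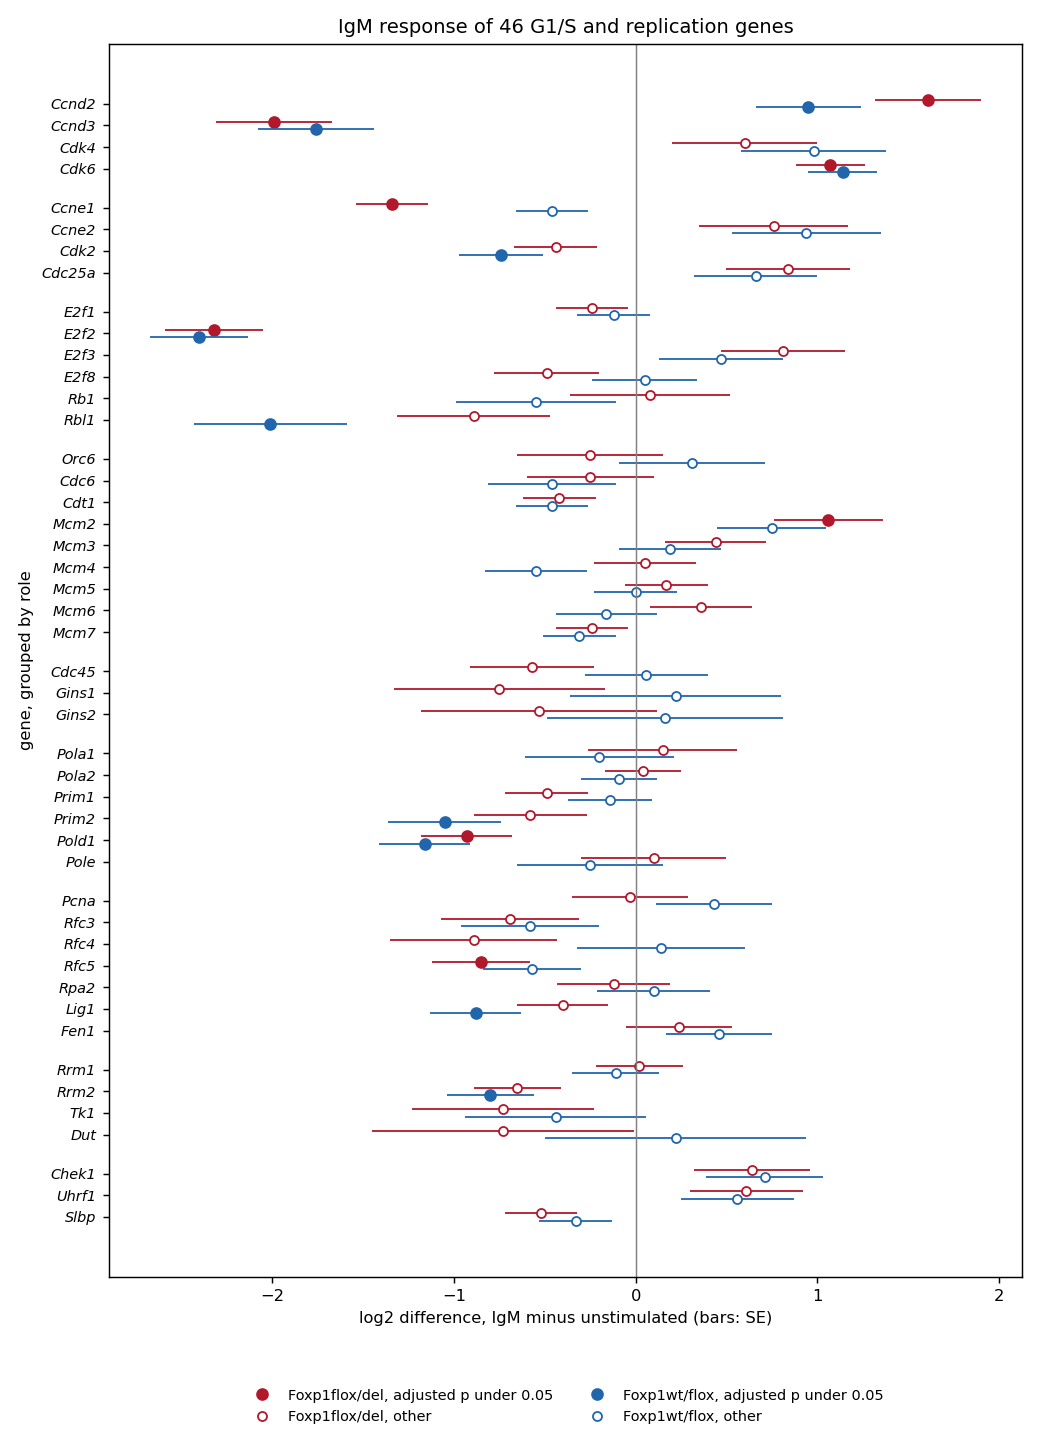
Log2 difference between cells with and without IgM for the 46 measured members, grouped by role, in Foxp1flox/del cells (red) and Foxp1wt/flox cells (blue). Bars are standard errors of the limma fit and filled points passed an adjusted p of 0.05; E2f2 and Ccnd3 lie far to the left in both genotypes, and Ccnd2 and Cdk6 to the right.

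Among the G1 cyclins and kinases, Ccnd2 encodes the D-type cyclin that antigen receptor signals induce in B cells. Its log2 values were 11.84, 12.12 and 12.92 in deleted cells with IgM, against 10.54, 11.08 and 10.45 in deleted cells without it, a rise of 1.61 (SE 0.29, 3.05-fold, limma adjusted p = 0.00327). In control cells they were 12.49, 12.68 and 12.59 with IgM, against 11.45, 11.80 and 11.68 without it, a rise of 0.95 (SE 0.29, 1.93-fold, limma adjusted p = 0.0378). All arrays with IgM were above all arrays without it in both genotypes, and the lowest values of the 12 were those of deleted cells without IgM. The rise in deleted cells was 1.29 without the array that stood apart (limma adjusted p = 0.00196). All 7 Ccnd2 probe sets were higher with IgM in both genotypes, but only 4 passed among probe sets in deleted cells and 1 in control cells. Their limma adjusted p reached 0.266 in deleted and 0.216 in control cells.

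Ccnd3, another D-type cyclin, is needed by cycling B cell precursors and germinal centre B cells, and it went the other way. Its log2 values were 7.88, 7.60 and 6.91 in deleted cells with IgM, against 9.97, 9.25 and 9.14 without it, and it fell by 1.99 (SE 0.32, 3.98-fold, limma adjusted p = 0.00184). In control cells they were 6.73, 6.97 and 6.44 with IgM, against 8.81, 8.47 and 8.13 without it, and it fell by 1.76 (SE 0.32, 3.38-fold, limma adjusted p = 0.00307). The groups did not overlap in either genotype, and without IgM the deleted arrays were above the control arrays. In deleted cells it was -1.71 without the array that stood apart (limma adjusted p = 0.0024).

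Cdk6, a kinase partner of the D cyclins, had log2 values of 11.31, 11.15 and 11.13 in deleted cells with IgM, against 10.26, 10.24 and 9.88 without it. In control cells it had 11.43, 11.39 and 11.60 with IgM, against 10.11, 10.46 and 10.43 without it. It rose by 1.07 (SE 0.19, limma adjusted p = 0.00314) in deleted and 1.14 (SE 0.19, limma adjusted p = 0.00195) in control cells, and the replicates of each group lay close together. Cdk4, the other D cyclin kinase, had values of 12.03, 11.59 and 10.27 in deleted cells with IgM, against 11.05, 10.56 and 10.49 without it, with the array that stood apart below the unstimulated ones. Its difference was 0.60 (limma adjusted p = 0.327) in deleted cells and 0.98 (limma adjusted p = 0.115) in control cells. Without that array the Cdk4 difference was 1.11 (limma adjusted p = 0.0122) in deleted and 0.98 (limma adjusted p = 0.0096) in control cells, and with the replicate block the adjusted p was 0.113 in deleted and 0.0205 in control cells.

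Of cyclin E, Cdk2 and the phosphatase Cdc25a, which activates Cdk2, only Ccne1 passed in deleted cells and only Cdk2 in control cells. Ccne1 encodes cyclin E1 and had log2 values of 5.81, 5.86 and 5.72 in deleted cells with IgM, against 7.0, 7.02 and 7.39 without it, and it fell by 1.34 (SE 0.20, 2.53-fold, limma adjusted p = 0.00143). In control cells the values were 5.57, 5.96 and 6.15 with IgM, against 6.29, 6.51 and 6.27 without it, a difference of -0.46 (SE 0.20, limma adjusted p = 0.146). Groups did not overlap in either genotype, the genotypes overlapped with IgM, and deleted cells without IgM were highest. The second Ccne1 probe set gave -0.63 in deleted cells (limma adjusted p = 0.15 among probe sets). Ccne2, encoding cyclin E2, had differences of 0.76 (limma adjusted p = 0.228) in deleted and 0.94 (limma adjusted p = 0.145) in control cells, opposite in sign to Ccne1, with 0.34 in deleted cells without the array that stood apart, and in control cells its adjusted p was 0.0234 with the replicate block.

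Cdk2, the cyclin E kinase, had log2 values of 8.21, 7.99 and 8.78 in deleted cells with IgM, against 8.76, 8.51 and 9.03 without it. In control cells they were 7.69, 7.72 and 7.78 with IgM, against 8.5, 8.33 and 8.57 without it. The control groups were apart, and Cdk2 fell by 0.74 there (SE 0.23, limma adjusted p = 0.0456), while the deleted groups overlapped through the array that stood apart (-0.44, limma adjusted p = 0.221, and -0.66 with limma adjusted p = 0.0198 without that array). Cdc25a had differences of 0.84 (limma adjusted p = 0.111) in deleted and 0.66 (limma adjusted p = 0.216) in control cells, with an adjusted p of 0.0403 in deleted cells under the replicate block.

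E2f2 encodes an E2F activator that in mice also restrains T cell proliferation. Its log2 values were 5.60, 5.05 and 5.62 in deleted cells with IgM, against 8.07, 7.46 and 7.70 without it, and it fell by 2.32 (SE 0.27, 5-fold, limma adjusted p = 0.000349). In control cells they were 5.54, 5.09 and 5.61 with IgM, against 8.21, 7.59 and 7.61 without it, and it fell by 2.40 (SE 0.27, 5.26-fold, limma adjusted p = 0.000226). The genotypes were nearly superimposed in both conditions, and the arrays with IgM lay well below those without. E2f2 passed the threshold under all 23 alternatives in both genotypes, and its second probe set fell by 1.90 in deleted and 2.47 in control cells.

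The other E2F genes did not pass in either genotype. E2f1, an activator, was between 4.85 and 5.51 on all arrays, with differences of -0.24 and -0.12 in deleted and control cells. E2f3, also an activator, had differences of 0.81 (limma adjusted p = 0.123, and 0.0101 with the replicate block) in deleted and 0.47 (limma adjusted p = 0.392) in control cells. E2f8, an atypical E2F that represses, had -0.49 (limma adjusted p = 0.269) in deleted and 0.05 (limma adjusted p = 0.941) in control cells.

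Rbl1 encodes the pocket protein p107. Its log2 values were 8.22, 8.97 and 9.83 in deleted cells with IgM, against 9.44, 10.29 and 9.99 without it, and 7.33, 8.21 and 8.17 in control cells with IgM, against 9.46, 10.16 and 10.11 without it. The control groups were apart and Rbl1 fell by 2.01 (SE 0.42, 4.02-fold, limma adjusted p = 0.00651), while the deleted groups overlapped through replicate 3 with IgM (-0.89, SE 0.42, limma adjusted p = 0.165). Without that array the difference in deleted cells was -1.31 (limma adjusted p = 0.0295), and with the replicate block its adjusted p was 0.0144. The second Rbl1 probe set had -1.01 in deleted cells (limma adjusted p = 0.0124 among probe sets). Rb1, the retinoblastoma protein gene, had 0.08 in deleted and -0.55 in control cells, with limma adjusted p of 0.92 and 0.461, and -0.47 in deleted cells without that array.

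Of the 9 measured licensing genes, which load the replicative helicase on origins, only Mcm2 passed. Mcm2 encodes a subunit of that helicase and had log2 values of 9.16, 8.91 and 9.85 in deleted cells with IgM, against 8.63, 8.28 and 7.83 without it, and 9.09, 9.15 and 8.77 in control cells with IgM, against 8.49, 8.37 and 7.91 without it. Arrays with IgM were above those without in both genotypes, by 1.06 in deleted (SE 0.30, limma adjusted p = 0.0297) and 0.75 in control cells (SE 0.30, limma adjusted p = 0.106). Its second probe set had 1.01 in deleted cells (limma adjusted p = 0.0519 among probe sets). Without the array that stood apart, Mcm2 had 0.79 in deleted cells (limma adjusted p = 0.0512) and an adjusted p of 0.0318 in control cells. The other 8 licensing genes lay between -0.42 (Cdt1, which recruits the helicase) and 0.44 (Mcm3) in deleted cells and between -0.55 (Mcm4) and 0.31 (Orc6) in control cells. Mcm4 reached an adjusted p of 0.0177 in control cells without the array that stood apart, and Cdt1 an adjusted p of 0.047 in deleted and 0.0323 in control cells with the replicate block.

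Helicase activation takes Cdc45 and the GINS complex, and none of these passed. Cdc45 was above 4 on 3 arrays, all of deleted cells, and so entered the tests only through that genotype. Gins2 was above 4 on 3 arrays, all of replicate number 1. Gins1 had log2 values of 6.65, 6.30 and 4.02 in deleted cells with IgM, against 6.88, 6.41 and 5.92 without it, and the low value came from the array that stood apart. Its difference was -0.75 with that array and 0.07 without it.

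Among the polymerase genes, Pold1 encodes the catalytic subunit of the lagging-strand polymerase delta. It had log2 values of 7.86, 8.23 and 8.87 in deleted cells with IgM, against 9.25 on each of the 3 arrays without it, and fell by 0.93 (SE 0.25, limma adjusted p = 0.0237). In control cells it had 7.75, 7.96 and 8.06 with IgM, against 9.01, 8.98 and 9.26 without it, and fell by 1.16 (SE 0.25, 2.23-fold, limma adjusted p = 0.00729). No array with IgM reached the unstimulated range, and both Pold1 probe sets passed in both genotypes. Pold1 fell by 1.20 in deleted cells without the array that stood apart (limma adjusted p = 0.000798).

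Prim2, the large primase subunit, had log2 values of 7.48, 7.15 and 6.41 in deleted cells with IgM, against 8.06, 7.39 and 7.33 without it, and 6.97, 7.01 and 6.67 in control cells with IgM, against 8.27, 7.79 and 7.75 without it. Only the control groups were apart, with a fall by 1.05 (SE 0.31, limma adjusted p = 0.0327), and the second Prim2 probe set had -0.82 there (limma adjusted p = 0.0516 among probe sets). In deleted cells the difference was -0.58 (limma adjusted p = 0.217, and 0.0429 with the replicate block), or -0.28 without the array that stood apart (limma adjusted p = 0.488). Pola1 and Pola2, of polymerase alpha, Prim1, the catalytic primase subunit, and Pole, the leading-strand polymerase, lay between -0.49 (Prim1) and 0.15 (Pola1) in deleted cells and between -0.25 (Pole) and -0.09 (Pola2) in control cells.

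At the fork, the clamp Pcna, its loader subunits, the single-strand binding subunit Rpa2, the flap nuclease Fen1 and the ligase Lig1 gave 1 fall in each genotype. Rfc5, a clamp loader subunit, had log2 values of 7.93, 7.57 and 7.18 in deleted cells with IgM, against 8.77, 8.15 and 8.32 without it, and fell by 0.85 (SE 0.27, limma adjusted p = 0.0483), while in control cells it had -0.57 (limma adjusted p = 0.173, and 0.0283 with the replicate block). Without the array that stood apart the Rfc5 difference in deleted cells was -0.66 (limma adjusted p = 0.0866). Lig1, which seals Okazaki fragments, had log2 values of 7.15, 7.63 and 6.87 in control cells with IgM, against 8.02, 8.38 and 7.90 without it, groups that were apart, and fell by 0.88 (SE 0.25, limma adjusted p = 0.0313). In deleted cells Lig1 had 7.95, 7.96 and 8.22 with IgM, against 8.65, 8.63 and 8.06 without it, and these overlapped (-0.40, limma adjusted p = 0.302). Pcna had 13.60, 13.52 and 12.16 in deleted cells with IgM, against 13.20, 13.12 and 13.04 without it, with only the array that stood apart below the unstimulated ones. Its difference in deleted cells was -0.03 (limma adjusted p = 0.966) with that array and 0.44 (limma adjusted p = 0.0309) without it, and in control cells 0.43 (limma adjusted p = 0.425, and 0.0158 without that array). Fen1 reached an adjusted p of 0.0249 in control cells with the replicate block, at a difference of 0.46, and Rfc3 an adjusted p of 0.0336 in control cells, at -0.58, without the array that stood apart.

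Of the nucleotide enzymes, Rrm2 encodes the S phase subunit of ribonucleotide reductase, which makes deoxynucleotides. It fell by 0.80 with IgM in control cells (SE 0.24, limma adjusted p = 0.0352) and had a difference of -0.65 in deleted cells (limma adjusted p = 0.081), and the arrays with and without IgM were apart in both. Rrm1, the partner subunit, had 0.02 in deleted and -0.11 in control cells. Tk1, thymidine kinase, had -0.73 and -0.44 in deleted and control cells, and Dut, which removes dUTP, had -0.73 and 0.22, none past the threshold. In deleted cells without the array that stood apart, Dut had 0.27, opposite in sign, and Tk1 had -0.25. Among the last 3 members, the checkpoint kinase Chek1 had 0.64 in deleted and 0.71 in control cells (limma adjusted p = 0.195 and 0.154, and 0.045 in control cells without the array that stood apart), the chromatin factor Uhrf1 had 0.61 and 0.56, and the histone mRNA binding protein Slbp had -0.52 and -0.33.

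Arrays with and without IgM did not overlap for 6 higher members (13%) and 9 lower members (19.6%) in deleted cells, against 16.6% and 17.9% of all genes tested. In control cells this held for 8 higher (17.4%) and 15 lower members (32.6%), against 21.0% and 24.5% of all genes. With any 1 of the 12 arrays left out, the calls of E2f2, Ccnd3 and Cdk6 held in both genotypes, those of Ccnd2 and Ccne1 in deleted cells and those of Rbl1 and Pold1 in control cells. Mcm2 lost its call without deleted IgM replicate 3 or deleted unstimulated replicate 2 or 3 (0.79 to 1.26 over the 12 omissions), and Pold1 in deleted cells lost it without deleted IgM replicate 1 or 2 or any deleted unstimulated array (-1.20 to -0.70). In control cells Ccnd2 (0.85 to 1.03), Prim2 (-1.15 to -0.89) and Cdk2 (-0.80 to -0.69) lost theirs without any 1 of the 6 arrays compared, Ccnd2 also without deleted unstimulated replicate 1, and Cdk2 also without deleted IgM replicate 1 or any deleted unstimulated array. Lig1 lost its call without any of the 6 but control IgM replicate 2 (-1.09 to -0.71), and Rrm2 without control IgM replicate 1 or 2, control unstimulated replicate 2 or 3, or deleted unstimulated replicate 3 (-0.94 to -0.60). Rfc5 kept its call only without deleted IgM replicate 1 or control unstimulated replicate 1 (-1.03 to -0.66). The mean log2 level of 9 B cell markers was 11.15 to 11.22 in deleted cells with IgM against 11.68 to 11.83 without it. In control cells it was 10.84 to 10.97 with IgM against 11.70 to 11.84 without it. Single markers went both ways in deleted cells, with 2 called higher and 2 lower with IgM, while 0 were called higher and 3 lower in control cells. The part of these markers in the results was not tested.

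**Figure D4:**
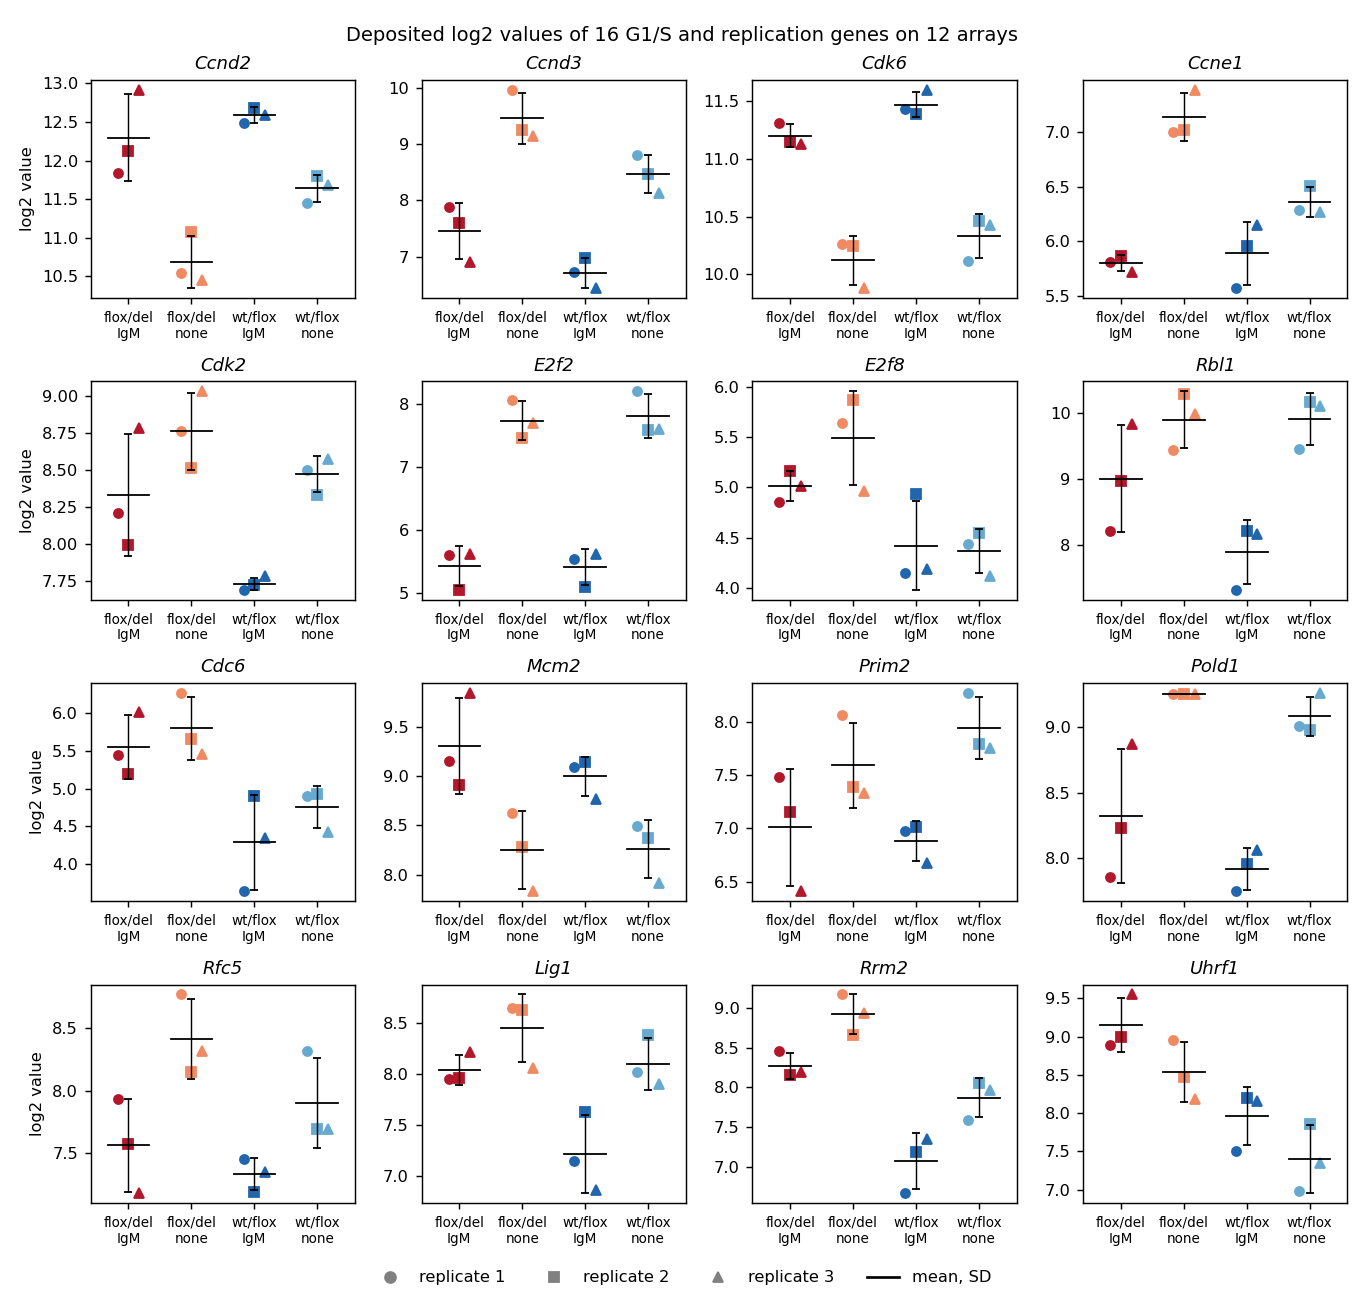
Deposited log2 values of 16 members on each of the 12 arrays, with 1 panel per gene and its own vertical range, so levels are not comparable between panels. Symbols mark replicate numbers, and horizontal lines with bars are group means with SD (n = 3); E2f2 is near the same level with IgM in both genotypes, and all Rrm2 values of deleted cells lie above those of control cells in the same condition.

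Between genotypes, Rrm2 was the member that passed, higher in deleted than in control cells both without and with IgM. No other measured member passed in either condition in the main fit, which does not pair arrays by replicate number. With the replicate block 5 members (10.9%), Cdc45 among them, were higher without IgM and 4 (8.7%) with it. The shares of all genes called higher were then 4.51% and 5.66%. In the main fit without IgM, 1 of 46 members was higher (2.17%) and 0 lower, against 2.03% and 0.818% of all genes tested. In the main fit with IgM, 1 was higher (2.17%) and 0 lower, against 1.59% and 0.129% of all genes. The main fit's shares are near the background, so its counts show nothing particular to these genes. The blocked shares, Cdc45 included, were above those of all genes, and that difference was not tested. At an unadjusted limma p below 0.05 there were 8 members (17.4%) without IgM and 10 (21.7%) with it, against 10.6% and 13.7% of all genes. The 8 include Cdc45, whose test between genotypes is not read, as explained below.

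Rrm2 had log2 values of 9.17, 8.66 and 8.94 in deleted cells without IgM, against 7.59, 8.06 and 7.97 in control cells without IgM, a difference of 1.05 (SE 0.24, 2.07-fold, limma adjusted p = 0.0428). With IgM it had 8.46, 8.16 and 8.19 in deleted cells, against 6.67, 7.18 and 7.35 in control cells, a difference of 1.20 (SE 0.24, 2.29-fold, limma adjusted p = 0.0335). Deleted cells with IgM were thus still above control cells without it, and deleted arrays were higher in 3 of 3 same-numbered pairs in each condition. All 3 Rrm2 probe sets were higher in deleted cells, by 1.05 to 1.28 without IgM and 0.96 to 1.54 with it, but only 2 passed among probe sets in each condition. The probe set used here had a limma adjusted p of 0.0565 among probe sets without IgM. Rrm2 was called under 7 of 23 alternatives without IgM and 10 of 23 with it. The adjusted p without the array that stood apart was 0.0225 without IgM and 0.0358 with it. The call depended on which array was left out: without IgM it held when deleted IgM replicate 3 or control IgM replicate 1 was left out and ended without any other array (0.91 to 1.18, highest adjusted p = 0.194). With IgM it held without deleted IgM replicate 3, deleted unstimulated replicates 1 or 3, or control unstimulated replicate 1, and ended without any other (1.0 to 1.34, highest adjusted p = 0.136).

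**Figure D5:**
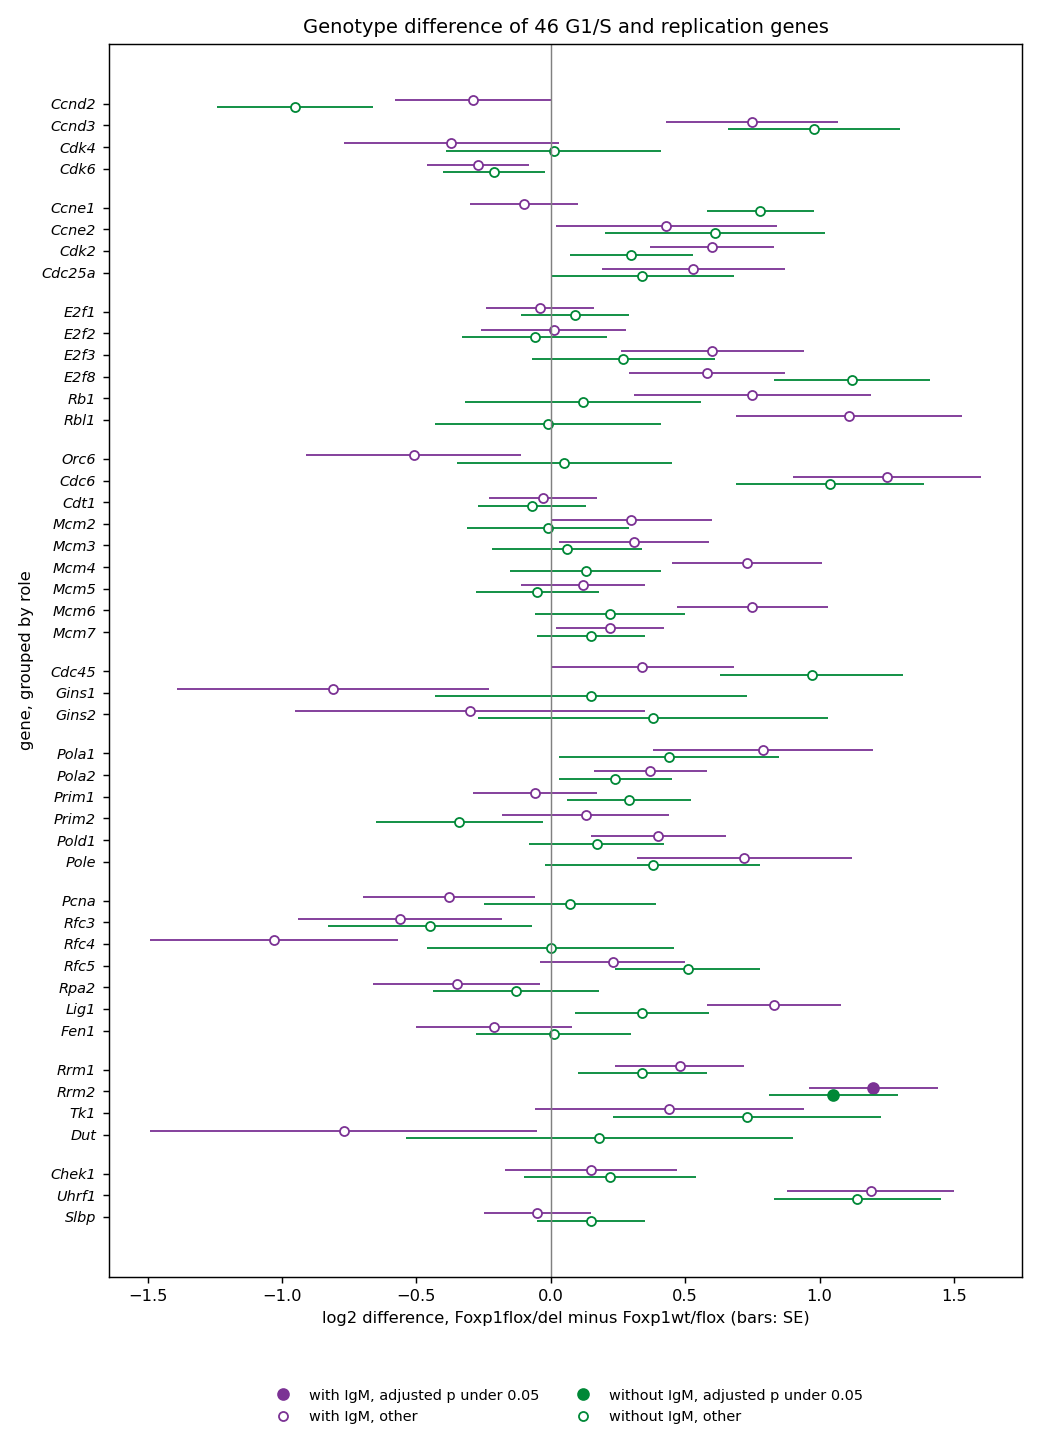
Log2 difference between Foxp1flox/del and Foxp1wt/flox cells for the 46 measured members, grouped by role, with IgM (purple) and without it (green). Bars are standard errors of the limma fit and filled points passed an adjusted p of 0.05, which Rrm2 alone did, in both conditions; Uhrf1 and Cdc6 lie near it at 1.04 to 1.25.

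Uhrf1, which couples DNA methylation to replication, had log2 values of 8.96, 8.47 and 8.19 in deleted cells without IgM, against 6.98, 7.86 and 7.35 in control cells without IgM, a difference of 1.14 (SE 0.31, limma adjusted p = 0.0973). With IgM it had 8.89, 9.0 and 9.55 in deleted cells, against 7.51, 8.20 and 8.16 in control cells, a difference of 1.19 (SE 0.31, limma adjusted p = 0.0929). The genotypes did not overlap in either condition. Its second probe set had 0.53 without IgM and 0.93 with it (limma adjusted p = 0.84 and 0.317 among probe sets). Uhrf1 had, without the array that stood apart, an adjusted p of 0.0462 without IgM and 0.172 with it, and with the replicate block 0.0575 without IgM and 0.0497 with it.

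E2f8 had log2 values of 5.64, 5.87 and 4.96 in deleted cells without IgM, against 4.44, 4.55 and 4.12 in control cells without IgM, all close to the filter level, with a difference of 1.12 (SE 0.29, limma adjusted p = 0.0738). Ccne1 had 7.0, 7.02 and 7.39 in deleted cells, against 6.29, 6.51 and 6.27 in control cells, a difference of 0.78 (SE 0.20, limma adjusted p = 0.0816). For both genes the lowest deleted array was above the highest control array. With the replicate block the adjusted p was 0.0108 for E2f8 and 0.0296 for Ccne1, and without the array that stood apart 0.0489 and 0.0337. The second Ccne1 probe set had 0.38 without IgM. With IgM, E2f8 had a difference of 0.58 and Ccne1 one of -0.10, with limma adjusted p of 0.406 and 0.822.

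Cdc6, which helps load the helicase, had log2 values of 5.45, 5.19 and 6.01 in deleted cells with IgM, against 3.64, 4.90 and 4.35 in control cells with IgM, a difference of 1.25 (SE 0.35, limma adjusted p = 0.117, and 0.219 without the array that stood apart). Lig1 had 7.95, 7.96 and 8.22 in deleted cells with IgM, against 7.15, 7.63 and 6.87 in control cells with IgM, a difference of 0.83 (SE 0.25, limma adjusted p = 0.158, and 0.0484 with the replicate block). Both genes were higher on every deleted array with IgM. Rbl1 too was apart with IgM, at 1.11 (SE 0.42, limma adjusted p = 0.272, and 0.0241 with the replicate block), or 0.69 without the array that stood apart (limma adjusted p = 0.517), and its other probe set gave 1.18 (limma adjusted p = 0.0358 among probe sets). Without IgM the Rbl1 difference was -0.01.

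Among the G1 cyclins, Ccnd2 and Ccnd3 had differences of opposite sign without IgM. Ccnd3 had 0.98 (SE 0.32, limma adjusted p = 0.183, and 0.0162 with the replicate block), and Ccnd2 had -0.95 (SE 0.29, limma adjusted p = 0.139, and 0.0178 without the array that stood apart). The second Ccnd3 probe set had 0.36. With IgM, Ccnd2 had -0.29 (limma adjusted p = 0.618). All 7 Ccnd2 probe sets were lower in deleted cells, by -2.04 to -0.95 without IgM and -1.55 to -0.29 with it, and 0 of them passed. In both genes the genotypes did not overlap without IgM, and neither passed in the fit of all 12 arrays without the block. Cdc45 had 5.28, 4.97 and 3.93 in deleted cells without IgM, against 3.93, 3.93 and 3.40 in control cells without IgM, and since it passed the filter only through deleted cells its test between genotypes is not read.

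By role without IgM, the medians of the members' log2 differences were 0.54 for nucleotide supply, 0.47 for cyclin E, Cdk2 and their activator, 0.38 for helicase activation, 0.27 for polymerases and primase, 0.22 for checkpoint, chromatin and histone mRNA genes, 0.10 for E2F factors and pocket proteins, 0.06 for licensing, 0.01 for the fork proteins and -0.10 for the G1 cyclins and kinases. With IgM they were 0.59 for E2F factors and pocket proteins, 0.48 for cyclin E, Cdk2 and their activator, 0.46 for nucleotide supply, 0.39 for polymerases and primase, 0.30 for licensing, 0.15 for checkpoint, chromatin and histone mRNA genes, -0.28 for the G1 cyclins and kinases, -0.30 for helicase activation and -0.35 for the fork proteins. The order of the roles thus differed between conditions, and without the array that stood apart helicase activation had 0.25 and the fork proteins 0.04 with IgM. The helicase activation medians include Cdc45, which passed the filter only through deleted cells, so they are not read between genotypes. Over all 46 members, Cdc45 included, the median was 0.17 without IgM, with 36 above 0, and 0.27 with it (0.19 without the array that stood apart), with 29 above 0, beside 0.00 and 0.08 for all genes. Of all 9293 genes tested, 4686 were above 0 without IgM and 5171 with it. Without the array that stood apart, 35 members and 5022 of all genes were above 0 with IgM. Arrays of the genotypes did not overlap for 9 higher (19.6%) and 2 lower members (4.35%) without IgM, against 10.3% and 8.55% of all genes. With IgM this held for 8 higher (17.4%) and 2 lower (4.35%), against 12.3% and 5.55%. With the replicate block 5 members, Cdc45 among them, were higher and 0 lower without IgM, and 4 higher and 0 lower with it, where 4.51% and 5.66% of all genes were called higher. Without the array that stood apart, 4 were higher and 1 lower without IgM, and 1 higher and 0 lower with it, where 3.84% of all genes were called higher and 2.09% lower without IgM, and 2.09% and 0.258% with it.

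Markers of other cell types were set beside the genotype differences. The mean log2 level of 9 neutrophil precursor and granule genes was 6.37 to 10.63 in deleted cells without IgM, against 4.27 to 7.39 in control cells without IgM, and 4.52 to 9.84 in deleted cells with IgM, against 3.97 to 6.62 in control cells with IgM, with 0 of 9 called in either. Mpo, a neutrophil precursor enzyme, was 13.06, 12.26 and 11.15 in deleted cells without IgM, against 8.91, 10.24 and 7.72 in control cells without IgM. For 7 macrophage and monocyte genes the range was 4.97 to 6.40 in deleted against 4.11 to 4.93 in control cells without IgM, with 1 called higher and 1 lower, and 4.84 to 6.32 against 3.82 to 4.51 with it, with 2 called higher. These macrophage ranges did not overlap between genotypes in either condition. For 10 immature B and precursor genes it was 6.58 to 7.54 in deleted against 5.81 to 6.07 in control cells without IgM, with 4 of the 8 measured called higher, and 5.97 to 6.93 against 5.32 to 5.54 with IgM, with 5 called higher. For 6 T cell genes it was 3.86 to 4.42 in deleted against 3.40 to 4.11 in control cells without IgM, and 2.84 to 4.15 against 3.31 to 4.01 with IgM, with 0 called. Among them Cd3d, a chain of the T cell receptor complex, was 8.30, 7.33 and 6.39 in deleted cells without IgM, against 7.30, 6.49 and 5.25 in control cells without IgM, while Cd4, Cd8a and Thy1 were at or below 4 on all arrays, as were Fcgr1 and Rag2. For 7 erythroid precursor genes it was 5.57 to 6.46 in deleted against 5.43 to 5.62 in control cells without IgM, and 5.63 to 6.30 against 5.27 to 5.49 with IgM, with 0 of the 4 measured called. The B cell list was at 11.68 to 11.83 in deleted and 11.70 to 11.84 in control cells without IgM, and 11.15 to 11.22 in deleted and 10.84 to 10.97 in control cells with IgM, where the ranges did not overlap. For 4 NK cell genes it was 5.95 to 7.15 in deleted against 4.21 to 6.10 in control cells without IgM, with 1 called higher, and 4.21 to 6.58 against 4.07 to 5.80 with IgM, with 0 called. For 5 plasma cell genes it was 10.32 to 10.65 in deleted against 10.63 to 10.95 in control cells without IgM, with 1 called lower. With IgM it was 10.83 to 11.24 against 10.59 to 10.74, ranges that did not overlap, with 1 called higher. For 4 germinal centre genes it was 4.73 to 5.19 against 4.76 to 5.08 without IgM, with 0 called. With IgM that list had 4.48 to 5.08 against 4.69 to 4.83, with 0 called. Dntt, Igll1, Cd14, Vcam1, Ltf and Gata1 were above 4 only on deleted arrays, and so passed the filter only through that genotype. The counts of immature B and macrophage genes called between genotypes may hold such genes and are not read. The part of these cell types in the genotype differences was not tested.

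The test of whether the IgM response differed between genotypes called 0 of the 46 members, where 0.0% of all genes tested were called higher and 0.108% lower. At an unadjusted limma p below 0.05 there was 1 member, Ccne1, whose IgM difference was -1.34 in deleted and -0.46 in control cells, an interaction of -0.88 (SE 0.29, limma adjusted p = 0.869), against -0.10 for its second probe set. Rbl1 had an interaction of 1.11 (SE 0.59, limma adjusted p = 0.951), from -0.89 in deleted and -2.01 in control cells. Ccnd2 had 0.66 (SE 0.40) and Rfc4, a clamp loader subunit, -1.04 (SE 0.65), both with a limma adjusted p of 0.951. Over the 7 Ccnd2 probe sets the interaction ran from -0.20 to 0.75, with 4 of them above 0. Without the array that stood apart Rbl1 had 0.70, Ccnd2 0.35 and Rfc4 -0.35. With the block and without that array together, a fit chosen after the data were seen, Rbl1 had 0.79 (limma adjusted p = 0.0277) and was the member called.

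Other genes of the pathway were taken from a list of 70, of which 59 were measured: inhibitors, further E2F and origin genes and nucleotide enzymes. With IgM, 8 rose and 6 fell in deleted cells, and 6 rose and 7 fell in control cells, shares of 13.6% and 10.2% in deleted cells and 10.2% and 11.9% in control cells. Cdkn2d, the Cdk4 and Cdk6 inhibitor p19, fell by 3.32 in deleted (SE 0.65, limma adjusted p = 0.00572) and 2.65 in control cells (SE 0.65, limma adjusted p = 0.0154), and Cdkn1b, the inhibitor p27, fell by 2.07 in deleted (SE 0.49, limma adjusted p = 0.0146) and 1.59 in control cells (SE 0.49, limma adjusted p = 0.0428). In deleted cells without the array that stood apart, Cdkn2d had -2.45 (limma adjusted p = 0.00307) and Cdkn1b -1.35 (limma adjusted p = 0.0029). Cdkn1b was named after its values were seen, and inhibitor genes of the list went both ways. Cdkn1a had means of 7.06 with IgM and 6.86 without it in deleted cells, and 7.55 and 6.49 in control cells. Cdkn2c had 6.58 and 7.69 in deleted cells, and 6.60 and 7.91 in control cells. Dctd, a deoxycytidylate deaminase, rose by 3.42 in deleted (SE 0.17, limma adjusted p = 3.46e-06) and 2.38 in control cells (SE 0.17, limma adjusted p = 3.32e-05). Myc rose by 2.49 (SE 0.30) and the uracil glycosylase Ung by 2.2 (SE 0.28) in deleted cells, and in control cells the nucleoside kinase Dck fell by 2.2 (SE 0.28) and Rbl2, the pocket protein p130, fell by 2.14 (SE 0.33). Myc, Ung, Dck and Rbl2 were named by size within a genotype, not for a difference between genotypes. In deleted cells Rbl2 had a mean of 9.45 with IgM and 10.58 without it. The interaction test called 0 of the 59. Between genotypes without IgM, Ccna2, encoding cyclin A2, was 1.73 higher (SE 0.38, limma adjusted p = 0.0385, called under 11 of 23 alternatives) and Dctd had -1.49 (SE 0.17, limma adjusted p = 0.000789). These calls were 1.69% higher and 1.69% lower, against 2.03% and 0.818% of all genes tested. With IgM 0 of the 59 were called by limma. At an unadjusted limma p below 0.05 there were 9 (15.3%), against 13.7% of all genes. With the replicate block 5 were called higher (8.47%), against 5.66% of all genes.

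Promoter motifs and the IgM response were set side by side for the members with a window. The E2F motif was in 5 of the 9 members with a window that fell with IgM in either genotype (55.6%), in 0 of the 2 that rose, and in 11 of the 27 called in neither (40.7%). The fallers with the motif include E2f2, Rbl1 and Pold1, and the fallers without it include Rrm2 and Ccnd3. These are counts of few genes with no test.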

How the data were processed

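Biotinylated cRNA of the 12 samples was prepared for Affymetrix arrays, per the labels' protocols. GCRMA, a method that models background from probe sequence and gives 1 value per probe set, is the tool named in the submitters' processing notes for the deposited log2 values, and its version and settings are not given in the sources used here. That the scale is log2 follows from the values themselves, 2.23 to 15.79. Values near the lowest have no order. Arrays have no read depth, and their number limits the precision.

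Of 45101 probe sets, 64 were controls, 34945 named 1 gene, 932 several and 9160 none in the platform annotation. For 34754 of them the symbol was taken by gene identifier from RefSeq's gene table (GRCm38.p6). A probe set was kept if 3 or more arrays exceeded 4 (19187 did), and the brightest kept probe set stood for its gene, which left 9293 genes. A further probe set of Tyms also names a pseudogene and was left out.

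The fit used limma 3.58.1 under R 4.3.3, with a mean for each group, all 12 arrays and the moderated two-sided test, for 5 comparisons. P-values were adjusted by Benjamini and Hochberg's method across the 9293 genes, with a threshold of 0.05, and errors of differences are the fit's standard errors. The procedure was tested on simulated data. Tables were handled in Python 3.11.15 with pandas 2.3.3. Full statistics went, per comparison, to the members past the threshold with the largest differences, up to 8, or to the 4 with the smallest p where fewer than 4 passed. The other members were given by role, and some beyond 4 examples a role were picked after their values were seen. Of the 59 other pathway genes measured, up to 4 per comparison were named, and Cdkn1b, Cdkn1a and Cdkn2c were added after their values were seen. The members, lists and rules were chosen with earlier results of these data known.

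The labels number the replicates 1 to 3 in every group. Across genes, arrays of 1 number deviated from their group means together, with correlations between 0.55 and 0.78 for the genotypes without IgM, 0.17 and 0.80 for the genotypes with IgM, 0.32 and 0.72 within deleted cells, and 0.69 and 0.85 within control cells. Every pair was above 0.1, so a fit with the number as a block, which treats it as a pairing, is quoted where it changed a call. The main fit has no block, so its calls leave this pairing out. Other alternatives changed the filter, the probe set rule, the normalization, the prior of the spread and the arrays used. Promoter windows are RefSeq's (GRCm38.p6), and motifs were searched by exact letters on both strands.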

Additional observations from a re-analysis of the deposited data

How the results depend on the processing

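Over 23 alternatives, 0 values of the genes named by the rule changed sign. Of the values for single named genes, 520 kept their side of the threshold, 106 lost it and 13 newly passed. The cause of the changes below was not tested, and some settings use fewer arrays or genes. Of 20 member calls over the 5 comparisons, 10 held with any 1 array left out, and the others depended on which array was left out.

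With the replicate block, the genes called were 640 (265 without it) between genotypes without IgM, 628 (160) with IgM, 3408 (1765) for IgM in deleted cells, 3299 (1920) for IgM in control cells and 16 (10) for the interaction. Members called with the block were 5 (1), 4 (1), 13 (8) and 15 (10) in the first 4 of these, and other pathway genes 5 (2), 5 (0), 24 (14) and 22 (13). Beyond the genes given above with a blocked value, the block changed no member's call.

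No filter gave 98 genes between genotypes with IgM, 0 members for both genotype comparisons, 1 other pathway gene without IgM, 9 other pathway genes for IgM in deleted cells, 5 members for IgM in control cells and 1 other pathway gene for the interaction. The stricter filter (above 5 on 6 arrays) gave 169 genes and 0 members between genotypes without IgM and 1 gene for the interaction. Fits of the compared groups alone gave 0 members in both genotype comparisons and 0 genes between genotypes with IgM, 540 genes, 3 members and 4 other pathway genes for IgM in deleted cells, and 22 other pathway genes for IgM in control cells. Quantile normalization gave 6 members for IgM in control cells.

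Leaving out 1 array, or all of 1 replicate number, moved the genes called between 30 and 551 for genotypes without IgM, 0 and 218 with IgM, 190 and 2390 for IgM in deleted cells, 290 and 3356 for IgM in control cells, and 0 and 16 for the interaction. Members called moved between 0 and 5, 0 and 1, 1 and 10, 1 and 17, and stayed at 0, in the same order. Other pathway genes moved between 0 and 5, 0 and 1, 3 and 20, 2 and 25, and stayed at 0. Member medians ran from 0.06 to 0.27, 0.17 to 0.37, -0.33 to -0.06, -0.20 to -0.02 and -0.08 to 0.17.

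The block without deleted IgM replicate 3, a setting chosen after seeing the data, gave 2007, 1223, 4976, 5874 and 187 genes, 9, 7, 18, 26 and 1 members, and 14, 12, 36, 40 and 2 other pathway genes, in that order. The 9 members include Cdc45, whose test between genotypes is not read.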
